A study of Boehmeria nivea with 10 samples.

Results

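The 200 contigs described here are assembled transcript sequences of ramie (Boehmeria nivea) roots that stood furthest above soil-grown roots in water-grown roots of both stages sampled, with late and early water levels within 1.4-fold of each other. They are 200 of 40300 contigs named in the deposited tables. They were chosen from measured values: a contig had to carry an identifier starting with Unigene, at least 10 expected counts in all 9 libraries, and a late hydroponic mean within 1.4-fold of the early hydroponic mean in FPKM, a level per kilobase of contig that is scaled to the depth of the library. The 8648 contigs that met these conditions, called eligible below, were ranked by the lowest FPKM of the 6 water libraries divided by the highest FPKM of the 3 soil libraries, called the gap, and the first 200 were taken. Differences between water and soil roots and between the water stages are therefore built into the choice, and are given as a description with no test.

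Of the 3 groups, each with 3 libraries, late hydroponic roots were aquatic roots of 30-day-old seedlings, early hydroponic roots were aquatic roots of 5-day-old seedlings, and terrestrial roots were soil-grown roots of 30-day-old seedlings. Late hydroponic and terrestrial roots share a stated seedling age, while early hydroponic and terrestrial roots differ in age and medium together. No cultivar, composition of the water or number of plants per library is given in the labels, so the spread between libraries may be partly technical. The contigs were assembled from a pool of aquatic and terrestrial roots, which has no values here.

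Ramie is a bast-fibre crop of the nettle family that can be propagated from shoots which form new roots. Gas moves far more slowly through water than through the air spaces of soil, and roots formed in water commonly develop internal air spaces and few root hairs, while low oxygen shifts metabolism towards fermentation. These processes are background, since the tables pair no contig with a gene name, a function or a sequence, and none is given to any contig below.

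Listed expected counts summed to 9499903 to 11522430 per library. On the first principal component of all tested contigs, which held 61.6% of the variance, terrestrial libraries lay apart from all 6 water libraries. Late hydroponic replicate 3 lay nearer the early libraries on the second component, at -52.61, while the other late replicates lay at -113.93 and -95.99 and the early replicates between 60.62 and 75.76. When the rule was applied without late replicate 3, 159 of the 200 contigs were chosen again.

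Together the 200 contigs took 1.73, 1.75 and 1.87% of the listed counts in late hydroponic replicates 1, 2 and 3, and 1.96, 1.81 and 2.02% in the early hydroponic ones, against 0.245, 0.207 and 0.292% in the terrestrial ones. The share averaged 1.78 ± 0.0743% in late hydroponic, 1.93 ± 0.109% in early hydroponic and 0.248 ± 0.0428% in terrestrial libraries (SD, n = 3 each). All 6 water libraries lay far above all 3 soil libraries, as the choice of contigs requires, and the early and late ranges overlapped. The median contig stood at 21.0 to 21.2 FPKM in late hydroponic and 23.7 to 25.035 FPKM in early hydroponic libraries, against 1.69 to 3.54 FPKM in terrestrial libraries. The median of the eligible contigs was nearly level, between 14.8 and 16.8 FPKM in all 9 libraries.

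**Figure D1:**
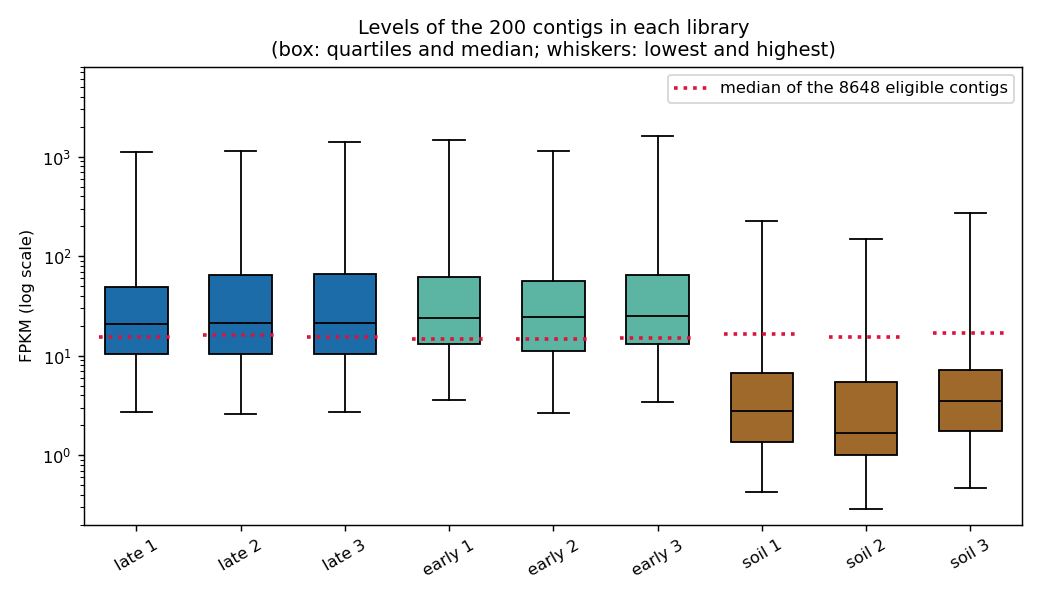
FPKM of the 200 contigs in each library on a log axis, with boxes for quartiles and median and whiskers to the lowest and highest contig; the dotted marks give the median of the 8648 eligible contigs. The median of the 200 lies above the eligible median in every water library and below it in every soil library, lowest in terrestrial replicate 2 at 1.69 FPKM.

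The widest gap was in Unigene31507_mixA, a contig of 1321 bases. It stood at 41.7, 48.36 and 77.11 FPKM in late hydroponic replicates 1 to 3 and at 70.71, 53.36 and 56.06 FPKM in the early hydroponic ones, against 1.84, 0.93 and 1.74 FPKM in the terrestrial ones. Its lowest water value was 22.7 times its highest soil value, and the mean over water libraries was 38.5 times the terrestrial mean. The late and early ranges overlapped, and the highest and the lowest water values were both late ones.

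Unigene22352_mixA, of 2080 bases, came next with a gap of 21.3. Its values were 38.69, 35.01 and 30.09 FPKM in late hydroponic, 29.19, 22.75 and 34.2 FPKM in early hydroponic roots and 1.07, 0.49 and 0.73 FPKM in terrestrial replicates 1 to 3. Here the late mean was the higher of the water means, at 34.6 ± 4.31 against 28.7 ± 5.74 FPKM in early roots (SD, n = 3 each), with overlapping ranges. In Unigene1818_mixA, of 1443 bases, all 3 late values (130.27, 106.89 and 115.94 FPKM) were above all 3 early values (99.3, 84.21 and 95.65 FPKM), and terrestrial roots had 1.88, 2.74 and 4.43 FPKM.

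Unigene33589_mixA and Unigene5516_mixA were the most even of the first 8 over the water libraries. Unigene33589_mixA, of 1300 bases, had 75.66, 73.54 and 88.6 FPKM in late hydroponic, 77.83, 90.1 and 84.59 FPKM in early hydroponic roots and 3.17, 0.8 and 4.27 FPKM in terrestrial replicates 1 to 3. Unigene5516_mixA, of 933 bases, had 89.39, 123.06 and 119.4 FPKM in late hydroponic, 107.81, 112.55 and 124.14 FPKM in early hydroponic roots and 2.94, 1.84 and 6.22 FPKM in terrestrial ones. Both varied more among the soil libraries than among the water libraries, relative to their means, and both were lowest in terrestrial replicate 2.

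Of the other 3 of the first 8, Unigene32466_mixA had the lowest level in water. Unigene3066_mixA, of 1343 bases, averaged 32.5 ± 9.87 FPKM in late hydroponic, 43.5 ± 1.36 FPKM in early hydroponic roots and 1.2 ± 0.215 FPKM in terrestrial roots (SD, n = 3 each). Unigene32466_mixA, of 1973 bases, averaged 13.4 ± 4.65, 14.1 ± 1.44 and 0.633 ± 0.0321 FPKM in the same groups. Unigene15758_mixA, of 1164 bases, averaged 30.1 ± 7.98, 30.5 ± 2.4 and 1.17 ± 0.313 FPKM. In all 3 contigs the late libraries were more spread than the early ones, and it was late replicate 3 that stood apart: high in Unigene3066_mixA and Unigene32466_mixA, low in Unigene15758_mixA.

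**Figure D2:**
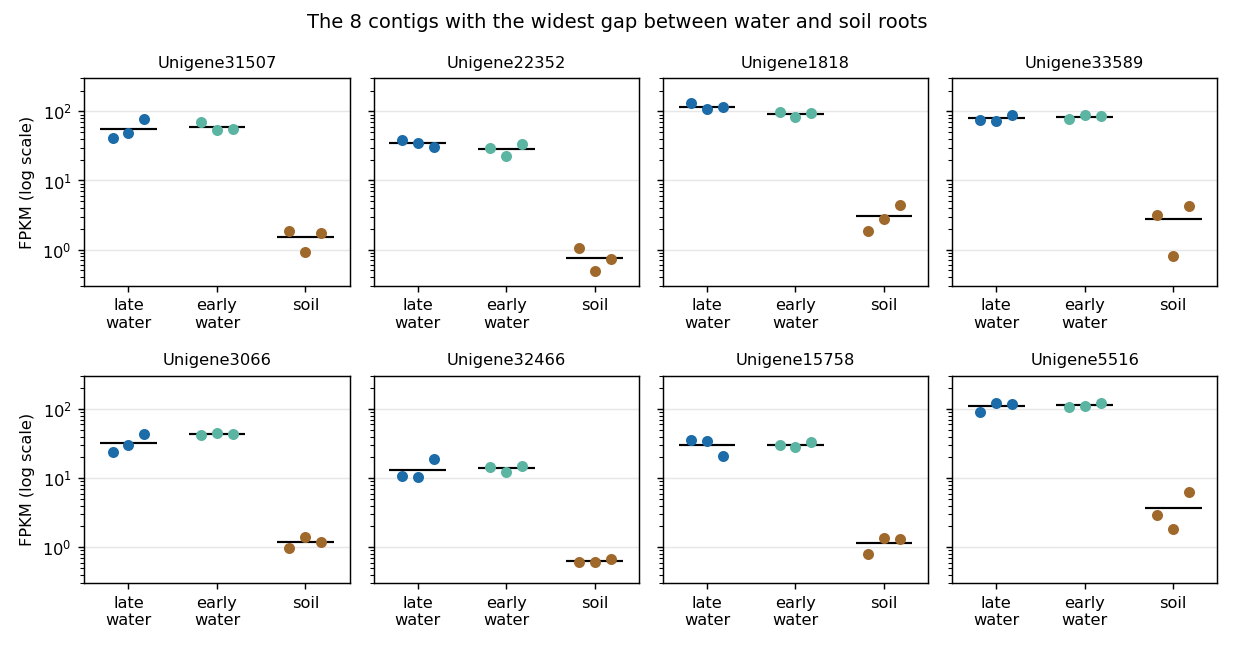
FPKM in each library, on a log axis, of the 8 contigs with the widest gap between water and soil roots; points are replicates and lines are group means. Water values lie between 10.52 and 130.27 FPKM and soil values between 0.49 and 6.22 FPKM, and early and late values overlap in all but Unigene1818_mixA.

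The soil values of these contigs rest on few reads. Summed over the 3 terrestrial libraries, Unigene31507_mixA had 63 counts (95% exact Poisson interval 48.4 to 80.6), against 4932 summed over the 6 water libraries. Unigene32466_mixA had 40 (28.6 to 54.5), against 1764 in the water libraries. These intervals cover counting error only. Over the 200 contigs the mean count per library had a median of 316 in late hydroponic, 423 in early hydroponic and 39.7 in terrestrial libraries, and 74 of the 200 had fewer than 20 counts in at least 1 terrestrial library. The minimum of 10 counts bears on membership: a further 159 contigs listed in all 9 libraries had a gap beyond that of the last member and a ratio inside the window, and were kept out by that minimum alone.

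Ordered by level, the most abundant member was Unigene15501_mixA, of 2006 bases, which ranked 30 among all contigs by mean FPKM over the water libraries and 389 in terrestrial roots. It had 1103.55, 1148.66 and 1412.11 FPKM in late hydroponic, 1456.76, 1137.09 and 1607.19 FPKM in early hydroponic roots and 224.99, 148.65 and 270.36 FPKM in terrestrial replicates 1 to 3. Its gap was 4.08, less than in any of the first 8, and it was the only member above 100 FPKM in soil roots. None of its 9 expected counts was whole, which means that some reads also matched other contigs, and its level depends on how the authors' counting divided them.

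Unigene2585_mixA, of 1046 bases, had 1091.38, 549.51 and 727.95 FPKM in late hydroponic, 581.6, 514.21 and 616.12 FPKM in early hydroponic roots and 74.54, 52.13 and 109.84 FPKM in terrestrial replicates 1 to 3. Late replicate 1 lay well above the other 2 late libraries, and none of its 9 counts was whole either. Unigene355_mixA, of 1394 bases, had 392.28, 593.6 and 520.64 FPKM in late hydroponic, 604.83, 682.77 and 629.6 FPKM in early hydroponic roots and 14.62, 88.32 and 25.82 FPKM in terrestrial ones. In this contig terrestrial replicate 2 was the highest soil library, in contrast to most members. Unigene2442_mixA, of 1295 bases, had the highest mean ratio of water to soil among the 200, at 60.1, with 241.18, 477.09 and 552.84 FPKM in late hydroponic, 673.02, 460.9 and 592.85 FPKM in early hydroponic roots and 16.92, 1.82 and 6.21 FPKM in terrestrial replicates 1 to 3. Its soil values spread over a wider range than those of any contig among the first 8, and its gap, 14.3, was set by terrestrial replicate 1.

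Members covered a wide range of levels. By rank among all 40300 contigs they ran from 30 to 21454 in water roots and from 389 to 32113 in terrestrial roots. Their mean over water libraries ran from 2.95 to 1311 FPKM with a median of 23.2, and their terrestrial mean from 0.493 to 214.7 FPKM with a median of 2.56. In water roots 33 of the 200 averaged above 100 FPKM and 162 above 10 FPKM, against 1 and 35 in terrestrial roots. By rank of mean FPKM among all 40300 contigs, 22 members were among the 1000 most abundant in water roots and 1 in terrestrial roots, and the median rank was 5932 in water roots and 23638.5 in terrestrial roots. Across the 200 contigs the water and the soil level had a Spearman correlation of 0.88. It was 0.81 in eligible contigs and 0.92 in the 200 eligible contigs with the widest gap in the opposite direction. These points share the libraries and the contig lengths, and the rule sets a least ratio of water to soil level. The value is therefore a description of how levels were ordered and is no test.

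**Figure D3:**
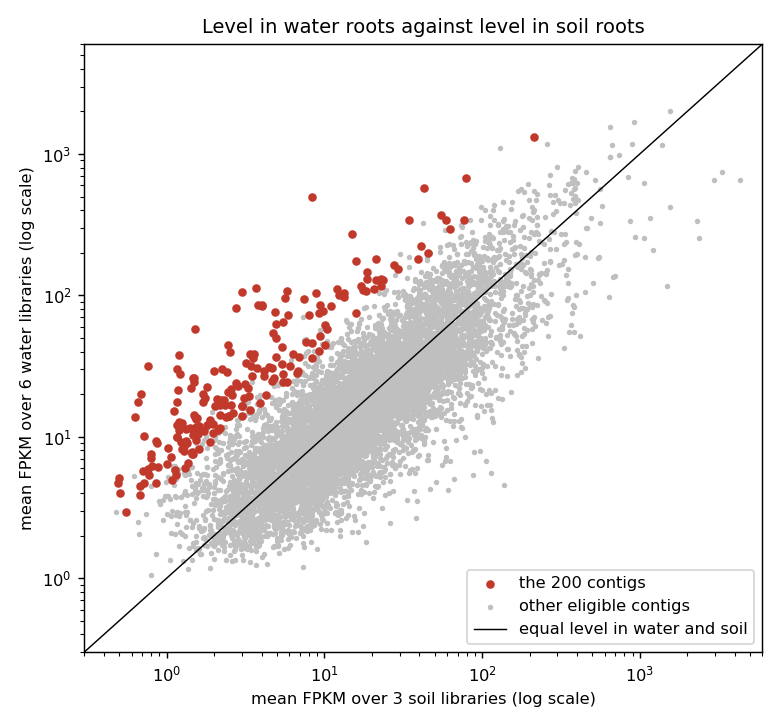
Mean FPKM over the 6 water libraries (vertical) against mean FPKM over the 3 soil libraries (horizontal) for each eligible contig, on log axes, with the 200 contigs in red and the line of equal level. The 200 contigs run along the upper edge, from 2.95 FPKM to 1311 FPKM in water roots.

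The difference narrowed quickly with rank. The ratio of mean water to mean soil FPKM was above 20 in 15 members, between 10 and 20 in 40, between 5 and 10 in 124 and up to 5 in 21, with a median of 7.55 and a range of 4.2 to 60.1. The median was 7.01 for late hydroponic over terrestrial and 7.79 for early hydroponic over terrestrial roots. Both ratios use the same 3 terrestrial libraries. The gap itself had a median of 4.34, and 18 members had a gap above 10.

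At the end of the list, members and non-members were close to each other. The last 4 members, Unigene14180_mixA, Unigene3873_mixA, Unigene12318_mixA and Unigene8298_mixA, had gaps of 3.09, 3.09, 3.08 and 3.07. The first 4 left out, Unigene18144_mixA, Unigene4617_mixA, Unigene4591_mixA and Unigene33184_mixA, had gaps of 3.06, 3.05, 3.03 and 2.98. Unigene8298_mixA, the last member, averaged 12.9 ± 0.389 FPKM in late hydroponic, 14.6 ± 2.28 FPKM in early hydroponic roots and 2.39 ± 1.49 FPKM in terrestrial roots (SD, n = 3 each). Unigene18144_mixA, the first left out, averaged 7.98 ± 0.71, 11.0 ± 0.964 and 1.99 ± 0.396 FPKM. Membership near the end of the list is therefore a matter of rank, and no break in the values separates the groups.

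A list built the opposite way, from eligible contigs whose lowest soil value stood furthest above their highest water value, had narrower gaps. Its first 200 contigs had gaps of 2.57 to 17.99 with a median of 3.16, and 3 of them were above 10. Among all eligible contigs, however, 2355 (27.2%) had every water library above every soil library and 2912 (33.7%) had every water library below every soil library. On the FPKM scale the contigs lower in water were thus the larger group by count, while those higher in water held the wider gaps at each rank shown. The count depends on scale and measure. With edgeR's TMM scaling, described below, 2662 eligible contigs were called higher and 2290 lower in late hydroponic than in terrestrial roots. For early hydroponic against terrestrial roots the numbers were 3069 and 2278.

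**Figure D4:**
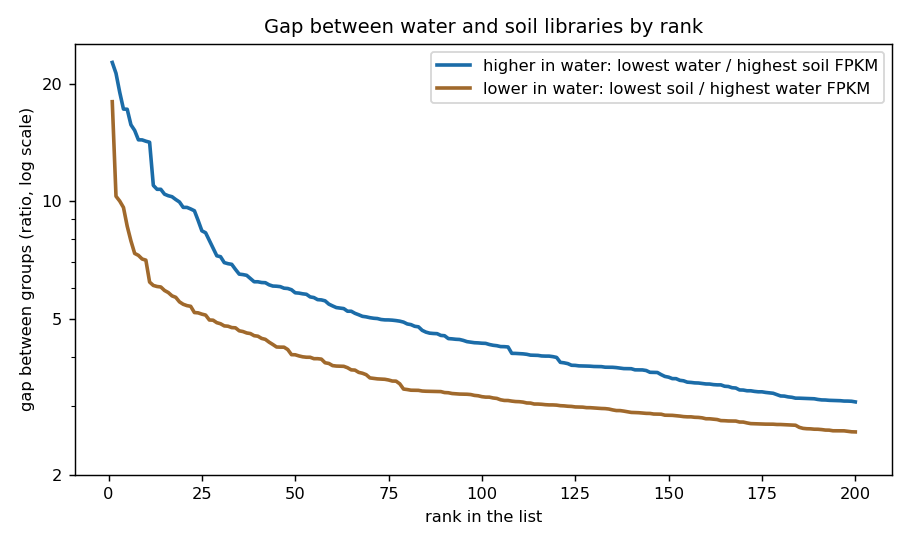
Gap between groups (ratio, log axis) by rank for the 200 contigs higher in water and, for comparison, the 200 contigs with the widest gap in the opposite direction. The blue line runs from 22.7 to 3.07 and the brown line from 17.99 to 2.57.

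Called equal at both stages by the rule, the 200 contigs leaned towards the early stage within the window that it allows. The late mean was below the early mean in 146 of 200 contigs (73%), against 3444 of 8648 eligible contigs (39.8%), and the median ratio of late to early was 0.871 in the 200 and 1.05 in the eligible contigs. In 48 of the 200 (24%) all 3 late values lay below all 3 early values, and in 7 (3.5%) all 3 lay above, against 9.01 and 15.4% of eligible contigs. The late mean was within 10% of the early mean in 40 of the 200. In the opposite list, of contigs lower in water, the late mean was below the early mean in 68 of 200 and the median ratio was 1.09.

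**Figure D5:**
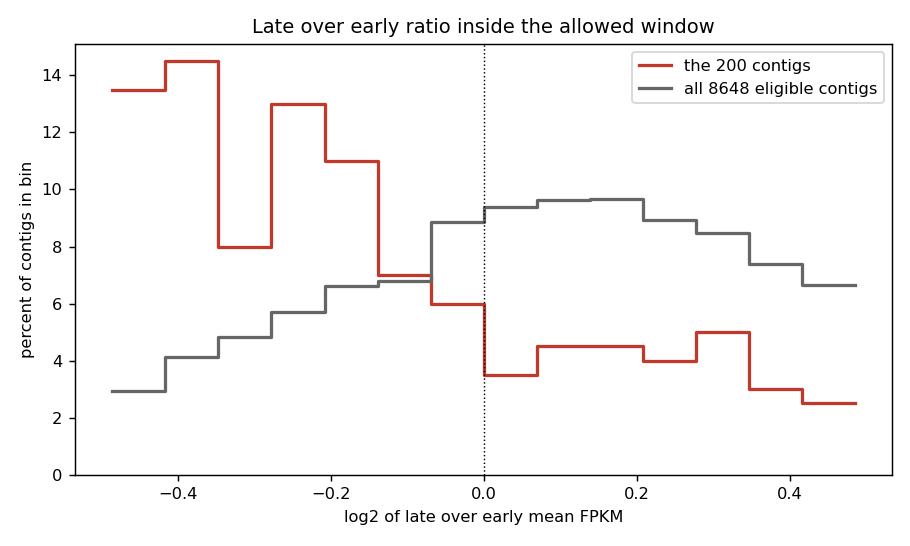
Percent of contigs by log2 ratio of late to early mean FPKM, in bins across the allowed window, for the 200 contigs (red) and all 8648 eligible contigs (grey); the dotted line marks equal means. The red line is highest on the side where early exceeds late, with 146 of 200 contigs below the dotted line.

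The lean was seen on each scale tried. The median change of the 200 depended on the scale, and that of all tested contigs moved with it. As fitted by edgeR with TMM scaling, which sets the bulk of contigs level between libraries, the median log2 change from early to late was -0.34 over the 200 contigs and 0.04 over all 26747 contigs tested. Tested contigs have no limit on the ratio. The eligible contigs, which share the window, had a median of -0.07 with this scaling, and theirs is not given for the other scales. With library totals alone the medians were -0.20 and 0.18, and with DESeq2's size factors they were -0.39 and -0.0043. On TMM-scaled counts per kilobase, 142 of the 200 contigs had a late to early ratio inside the 1.4-fold window and 58 had one below it. The share of eligible contigs below it on that scale is not given here. The rule's equality is thus tied to the authors' FPKM scale.

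The contigs at the ends of the window show what it admits. Unigene29466_mixA, of 464 bases, had the highest ratio of late to early, just under the limit, with 99.95, 108.44 and 86.33 FPKM in late against 70.16, 76.09 and 65.08 FPKM in early hydroponic replicates 1 to 3 and 3.19, 2.15 and 6.74 FPKM in terrestrial ones. Unigene15261_mixA, of 2097 bases, followed at 1.39, with 181.04, 111.4 and 93.53 FPKM in late against 95.91, 83.23 and 98.88 FPKM in early replicates and 20.7 ± 4.18 FPKM in terrestrial roots (SD, n = 3). In Unigene29466_mixA no late value overlapped the early ones, while in Unigene15261_mixA the ranges overlapped. The lowest ratios were 0.715 in Unigene14649_mixA and 0.718 in Unigene31459_mixA. Unigene31459_mixA, of 1873 bases, had 20, 25.63 and 24.54 FPKM in late against 35.1, 36.21 and 26.47 FPKM in early hydroponic replicates, with no overlap, and 1.14, 0.7 and 1.82 FPKM in terrestrial ones.

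At 3 libraries per group the equality of single contigs is known only roughly. The 95% interval of the fitted late against early change had a median half-width of 0.52 on the log2 scale, and it lay wholly within 2-fold either way in 134 of the 200 contigs and wholly within 1.4-fold in 11. Among the 8648 eligible contigs, in the same libraries, the median half-width was 0.40. Their interval lay within 2-fold in 7649 and within 1.4-fold in 2431, so equality was less well fixed in the 200. For Unigene31507_mixA the change was -0.24 with an interval of -0.85 to 0.37, and for Unigene2442_mixA it was -0.58 with an interval of -1.96 to 0.79. A contig of this list may thus differ between the water stages by more than its means show.

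With edgeR's quasi-likelihood test at a Benjamini-Hochberg adjusted p under 0.05, taken over all contigs, 200 of 200 contigs were called higher in late hydroponic than in terrestrial roots, where 28.7% of all tested contigs were, and 200 of 200 higher in early hydroponic than in terrestrial roots, where 30.1% were. The rule used these contrasts, and nothing is read from the counts. All 200 passed the filter on low counts, since the rule's own minimum is stricter. Between late and early hydroponic roots 5 of the 200 were called, all lower late, where 6.3% of tested contigs were called lower and 8.37% higher. These 5 were Unigene22777_mixA, Unigene10029_mixA, Unigene1308_mixA, Unigene11233_mixA and Unigene19836_mixA, named after their values were seen. In all 5 the late values lay below the early ones: Unigene10029_mixA averaged 145.6 ± 11.8 FPKM in late against 202 ± 6.17 FPKM in early and 15.8 ± 3.27 FPKM in terrestrial roots, and Unigene19836_mixA 255 ± 25.9 against 333 ± 19.1 and 62.7 ± 7.18 FPKM (SD, n = 3 each). The number of the 200 called was 0 with library totals alone, 10 with DESeq2's size factors in edgeR, 31 by DESeq2 and 1 by limma on log2(FPKM + 1). Of the 26747 contigs tested, 1052, 2038, 2930 and 1399 were called lower late in these same settings. With no filter on low counts the number of the 200 was 5, and with a replicate block 6. Over all contigs, 1870 of 40285 and 1357 of 26747 were then called lower late. The number of the 200 was 0, 1 and 1 without early hydroponic replicates 1, 2 and 3. Over all contigs, 651 of 28110, 654 of 28045 and 707 of 28039 were then called lower late. Without late hydroponic replicates 1, 2 and 3 the number of the 200 was 1, 2 and 28. Over all contigs the calls of lower late were then 749 of 28011, 846 of 27985 and 3031 of 28238. Without terrestrial replicates 1, 2 and 3 the number of the 200 was 6, 20 and 16. Over all contigs, 1636 of 27745, 2305 of 27929 and 1857 of 27860 were then called lower late. The number called over all contigs thus moved with the setting too. Every call among the 200 in these settings was lower late. The rule's window leaves little room for the other direction: with TMM scaling the log2 changes of the 200 ran from -0.62 to 0.34. Among the 8648 eligible contigs, which share the window, 274 were called lower late and 2 higher in the main fit. The direction of the calls is therefore not particular to the 200.

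Without the limit on the ratio, the 200 contigs were spread among 380 Unigene contigs with as wide a gap. Of the 180 others, 143 had a late mean more than 1.4-fold below the early mean and 37 a late mean more than 1.4-fold above it. The members began at position 8 of that longer list, and 42 of its first 100 contigs were members, 51 were higher early and 7 higher late. A higher early level was thus more frequent than a like level among the first 100, less frequent over all 380, and more frequent than a higher late level in both. Of the 13171 Unigene contigs that met the other conditions, 8648 lay inside the window. How the rest divided between higher early and higher late is not given here, so these counts describe the list alone.

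Single libraries set the gap unevenly. The lowest water value came from late hydroponic replicate 1 in 80 of the 200 contigs (40%), late replicate 2 in 39 and late replicate 3 in 31, against 11, 24 and 15 from early hydroponic replicates 1, 2 and 3. Among eligible contigs late replicate 1 was lowest in 23.8%. The highest soil value came from terrestrial replicate 3 in 137 contigs (68.5%, against 42.2% of eligible contigs), and the lowest from terrestrial replicate 2 in 151 (75.5%, against 49.9%). The median ratio of terrestrial replicate 3 to replicate 2 was 1.71 in the 200 contigs and 1.07 in the eligible contigs. In the opposite list, of contigs lower in water, terrestrial replicate 2 was the highest soil library in 116 of 200. For both lists terrestrial replicate 2 was thus most often the soil library furthest from the water libraries, and it also lay furthest from them on the first principal component, at 198, against 174 and 164 for replicates 1 and 3.

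Values of a library that took no part in a choice were read by applying the rule to the other 8 libraries. In each of these 9 repeats, 200 of the 200 contigs chosen had the left-out library on its own side: above every soil library when it was a water library, and below every water library when it was a soil library. Among all contigs eligible in the same repeat, which were not chosen for a gap, this held for 31.3 to 40.9%. The contigs chosen already had gaps of at least 2.83 to 3.77, depending on the repeat, in libraries that include the mates of the left-out one. Only a library at least that far from its mates could fall on the other side. The outcome is therefore close to fixed by the choice and is no test. The left-out library could also be set beside its group mates, whose values the choice did use and thereby moved: terrestrial replicate 2 stood at a median of 0.61 of the mean of the other terrestrial libraries in contigs chosen without it (0.939 in eligible contigs), terrestrial replicate 3 at 1.51 (1.05) and terrestrial replicate 1 at 1.02 (1). Late replicate 1 stood at 0.882 of its group mates (0.961 in eligible contigs). Choosing contigs for low soil values in the mates, and high water values, shifts these ratios by itself, so nothing is read from them.

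Membership itself did depend on single libraries. Between 155 and 188 of the 200 were chosen again in each repeat, fewest without late replicate 1 and most without terrestrial replicate 1. A core of 103 was chosen in all 9 repeats, made up of 68 of ranks 1 to 100 and 35 of the 100 ranked after them. The highest-ranked contig that was lost in any repeat was Unigene3066_mixA, at rank 5.

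Spread within groups was wider in soil than in water roots. The coefficient of variation over 3 libraries had a median of 13.8% in late hydroponic, 11.2% in early hydroponic and 31.0% in terrestrial roots. Counting error expected from the mean counts had medians of 5.63, 4.86 and 15.9%. That is a long-run value, and coefficients measured on 3 libraries tend to fall below it, so the comparison is rough. In eligible contigs the medians were 13.3, 10.2 and 12.0%, with counting error at 6.67, 6.35 and 6.52%. The wider soil spread of the 200 thus goes with both fewer soil counts and the unequal levels of terrestrial replicates 2 and 3, and their parts in it were not tested.

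Over the 6 water libraries the most even members were Unigene1613_mixA and Unigene31756_mixA, with coefficients of variation of 5.22 and 5.35%. Unigene1613_mixA, of 1343 bases, had 34.66, 33.92 and 35.45 FPKM in late hydroponic, 38.09, 37.35 and 38.44 FPKM in early hydroponic roots and 8.01, 6.11 and 10.82 FPKM in terrestrial replicates 1 to 3. Its late values all lay below its early ones, by less than in most contigs. Unigene31756_mixA, of 862 bases, had 23.49, 23.43 and 22.7 FPKM in late hydroponic, 24.36, 21.76 and 21.06 FPKM in early hydroponic roots and 3.09, 2.0 and 3.38 FPKM in terrestrial ones, with overlapping water ranges.

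The most uneven were Unigene1099_mixA, Unigene5597_mixA and Unigene30252_mixA, at 46.6, 41.1 and 35.0%. Unigene1099_mixA, of 1811 bases, had 32.62, 11.3 and 7.53 FPKM in late hydroponic replicates 1 to 3, 20.62, 19.43 and 21.56 FPKM in the early ones and 2.05, 0.88 and 2.31 FPKM in the terrestrial ones. Unigene30252_mixA, of 2583 bases, had 63.95, 62.25 and 154.1 FPKM in late hydroponic, 105.47, 90.08 and 111.49 FPKM in early hydroponic roots and 18.48, 3.89 and 17.31 FPKM in terrestrial replicates. For these contigs a late mean near the early mean hides late libraries on both sides of the early ones. Unigene5597_mixA, of 2066 bases, averaged 18.9 ± 10.1 FPKM in late hydroponic, 21.1 ± 7.99 FPKM in early hydroponic roots and 1.71 ± 0.481 FPKM in terrestrial roots (SD, n = 3 each), with late replicate 3 its lowest water library at 7.38 FPKM.

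Contig length and shared reads were not part of the rule, apart from their effect on counts. The 200 contigs had a median length of 1620 bases, against 1406 in eligible contigs, 1121 in tested contigs and 629 in all contigs. The opposite list, of contigs lower in water, had a median of 1079 bases. The longest members were Unigene14649_mixA, of 8718 bases, and Unigene31073_mixA, of 4831 bases, and both were among the less abundant, at 3.21 ± 0.373 and 10.4 ± 0.43 FPKM in late hydroponic, 4.49 ± 1.05 and 12.9 ± 2.3 FPKM in early hydroponic roots and 0.68 ± 0.24 and 1.54 ± 0.567 FPKM in terrestrial roots (SD, n = 3 each). The shortest were Unigene19778_mixA, of 233 bases, and Unigene4082_mixA, of 266 bases, at 92.0 ± 7.99 and 40.9 ± 0.586 FPKM in late hydroponic, 125 ± 10.6 and 47.9 ± 1.39 FPKM in early hydroponic roots and 17.6 ± 4.94 and 10.03 ± 2.72 FPKM in terrestrial roots. Across the 200, length and water level had a Spearman correlation of -0.46, against 0.06 in eligible contigs. FPKM divides by length and the minimum count falls on soil libraries, where a short contig reaches 10 counts only at a higher FPKM, so these points are not free of the rule.

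Expected counts were whole in all 9 libraries in 164 of the 200 contigs (82%) and in 85.4% of eligible contigs, and in 15 of the 200 they were whole in none. Shared reads were therefore about as frequent as in the contigs from which the 200 were drawn. The first 2 by rank with no whole count were Unigene4640_mixA, of 3721 bases, at 5.62 ± 1.2 FPKM in late hydroponic, 4.53 ± 0.707 FPKM in early hydroponic roots and 0.497 ± 0.0802 FPKM in terrestrial roots, and Unigene5025_mixA, of 270 bases, at 98.9 ± 26.2, 88.3 ± 13.8 and 7.38 ± 3.0 FPKM (SD, n = 3 each). Their levels depend on how reads were divided among like contigs.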

How the data were processed

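RNA of 9 ramie root libraries was quantified against contigs assembled de novo from a pooled library, per the series' design text. Aligner, counting program, versions and strandedness are not given in the sources used here. Per the file headers, the deposited tables give contig length, expected count and FPKM. In the deposited tables an expected count can be fractional where reads match several contigs (a value within 0.005 of an integer was taken as whole). The deposited FPKM values were used as given; they imply a contig length shortened by about 36.5 bases. Totals of 9499903 to 11522430 counts per library limit the precision of low contigs. A contig unlisted in a library was taken as 0 in the fits. The members, lists and naming rule were chosen with earlier results of these data known.

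Expected counts were rounded and fitted with edgeR 4.0.16 in R 4.3.3: TMM, filterByExpr with its minimum count of 10 (26747 contigs), 3 groups, robust quasi-likelihood dispersions, 6 residual degrees of freedom and no block. Standard errors are the log2 change divided by the square root of F, and 95% intervals use the t distribution. Principal components used log2 CPM (prior count 2). The fit was tested on simulated counts. Alternatives were DESeq2 1.42.0, limma 3.58.1 on log2(FPKM + 1), other scalings, no filter, a replicate block, each library left out, and other settings of the rule. Contigs named are ranks 1 to 8, those just inside and outside the end of the list, and the extremes of level, length, evenness, shared reads and late to early ratio. The pooled sample was not used here. Contig sequences and annotations were not used here.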

Additional observations from a re-analysis of the deposited data

How the results depend on the processing

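How many of the 200 contigs were chosen again depended on the rule's thresholds. It was 100 with a ratio window of 1.2-fold, 119 with 2-fold and 94 with no window, and 99 with no minimum count and 59 with a minimum of 50 counts; each setting changes which contigs are eligible, and the list stays 200 long. It was 142 on TMM-scaled counts per kilobase, 170 with group means in place of extremes, 147 with cluster contigs included and 155 to 188 with each library left out. Over all contigs, 3922 were called between late and early hydroponic roots, and 1598 to 5687 with each library left out, lowest without early replicate 1 and highest without late replicate 3. Of these calls 57.1% were higher late with TMM scaling. The share was 75.5% with library totals alone, 71.1% by limma, 50.1% with DESeq2's size factors in edgeR and 47.9% by DESeq2. With each library left out it ran from 46.7 to 64.6%, so the direction of the majority depended on the processing. Late hydroponic against terrestrial (14160 calls) and early hydroponic against terrestrial roots (16347 calls) stayed within 1.5 times in every alternative run. Deviations of same-numbered libraries correlated weakly (-0.09 to 0.14). Between early and late roots they ran from 0.02 to 0.07 in same-numbered pairs and from -0.06 to 0.0001 in the others. Between late and terrestrial roots they ran from -0.09 to 0.14 in same-numbered pairs and from -0.16 to 0.13 in the others. These values do not settle whether the numbers pair the samples. With the replicate block 13572, 15919 and 3093 contigs were called in late against terrestrial, early against terrestrial and late against early roots. Soil values of few counts limit the folds of the highest-ranked contigs.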

Other observations

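Contigs that the assembly placed in clusters were outside the list, because their identifiers do not start with Unigene. By the same conditions 3207 cluster contigs were eligible, and 76 of them, from 65 clusters, had a gap wider than the last of the 200. The widest was in CL1537.Contig1_mixA, of 2366 bases, at 527 ± 262 FPKM in late hydroponic, 428 ± 112 FPKM in early hydroponic roots and 3.92 ± 0.954 FPKM in terrestrial roots (SD, n = 3 each), with a gap of 52.5, above any Unigene contig of the list. Only 1 of its 9 expected counts was whole. CL735.Contig1_mixA, of 262 bases, and CL735.Contig4_mixA, of 1066 bases, carry the same cluster number and both had wide gaps, of 33.8 and 12.3. CL735.Contig4_mixA averaged 950 ± 218 FPKM in late hydroponic, 871 ± 170 FPKM in early hydroponic roots and 47.2 ± 10.7 FPKM in terrestrial roots (SD, n = 3 each). Contigs of 1 cluster can share reads, so these are not separate observations.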
